A study of Mus musculus with 4 samples.

Results

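The genes described here are 41 members of the p53 pathway and of the machinery of apoptosis, and all 41 were found among the 35689 genes of the deposited table. They were chosen by name and grouped by role, with earlier results of these data known. The group holds p53 and its 2 main regulators, 14 p53 target genes, 15 members of the BCL2 family, 5 genes of the apoptosome and the caspases, and 4 genes of the inhibitor of apoptosis (IAP) group. RNA came from whole mouse forelimb buds of the stage E11.5, with 2 conditional knockout embryos (PrxCre/+;Smarcc1c/c) and 2 control embryos (Prx+/+;Smarcc1c/c). The embryos of both genotypes were homozygous for the conditional allele of Smarcc1, the gene of BAF155, which is a core part of BAF chromatin remodelling complexes, and only the knockout embryos carried the PrxCre transgene. PrxCre acts in limb bud mesenchyme, so ectoderm, blood and vessel cells in the same bud keep an intact Smarcc1 gene. The left and right forelimb of a single embryo made up a library, with 40 somites in replicate 1 and 39 somites in replicate 2 of either genotype.

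p53 is a transcription factor that is held at a low protein level by the ubiquitin ligase MDM2 and its partner MDM4, and that is released when DNA is damaged or ribosome production is disturbed. It then switches on genes of cell cycle arrest and repair and genes of cell death. In the mitochondrial route to death, BH3-only proteins neutralise survival proteins such as BCL2 and MCL1 or activate the effectors BAX and BAK, cytochrome c leaves the mitochondria, and the apoptosome formed by APAF1 activates caspase 9. In the developing limb, apoptosis later removes the tissue between the digits, and it also occurs in smaller fields at the front and rear margins of the bud. Most of these steps are set at the level of proteins, which RNA levels do not show.

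Smarcc1 itself stood at 46.2 and 38.4 TPM (a transcript abundance corrected for length, with the same total in every library) in knockout buds at 40 and 39 somites, against 112 and 119.6 TPM in control buds at 40 and 39 somites. The log2 difference came to -1.44 ± 0.13 (SE, n = 2 per genotype, limma with Benjamini-Hochberg adjusted p = 0.0117). Of 12809 genes tested, 167 passed that test at 0.05, which is 1.3% of them, with 104 higher (0.812%) and 63 lower (0.492%) in the knockout. The number of reads behind a TPM is unknown. Ddx3y, which is Y-linked, had 0.0498 and 28.3 TPM in knockout buds at 40 and 39 somites, against 0.013 and 30.2 TPM in control buds, so somite stage and sex cannot be told apart. Of 8 limb mesenchyme markers 7 were tested and present in every library, with a median log2 fold change of 0.36, 4 above 0 and 3 below. Pdgfra, at 161.8 and 173.4 TPM in knockout buds against 79.5 and 83.96 TPM in control buds, and Lum, at 17.2 and 18.2 TPM in knockout buds against 6.91 and 7.23 TPM in control buds, rose (limma, Benjamini-Hochberg adjusted p = 0.0165 and 0.0167), and none passed as lower. With somite stage added to the limma model, 4 of the 7 markers passed, 3 higher and 1 lower, beside 4.16% of all genes. Prrx1, whose regulatory sequence drives the Cre, stood at 129.9 and 139.8 TPM in knockout buds against 188 and 201.1 TPM in control buds, and the forelimb gene Tbx5 stood at 31.9 and 40.2 TPM in knockout buds against 32.1 and 43.1 TPM in control buds. The part of these markers in the results on the 41 genes was not tested.

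The main finding for the 41 genes, in the fit without somite stage, is that 1 of them, Pmaip1, rose in the knockout forelimbs. Trp53, its regulators and the 13 tested genes of the p53 target classes did not pass the test. Pmaip1 and Bbc3 are also known as p53 targets but are counted here with the BH3-only genes, so this contrast rests on the grouping. Of the 39 members tested, 1 was higher, 0 were lower and 38 missed the threshold (limma, Benjamini-Hochberg adjusted over all genes), beside 1.3% of all genes tested (0.812% higher and 0.492% lower). With somite stage added to the limma model 2 members passed, Pmaip1 as higher and Bok as lower, beside 4.16% of all genes. Without somite stage, an unadjusted p under 0.05 was reached by 4 members, beside 13.7% of all genes (6.78% higher and 6.89% lower). Of the 4, 3 were higher (Pmaip1, Sesn1 and Ccng1) and 1 was lower (Bok). By sign, 20 members lay above 0 and 19 below, beside 51.8% of all genes above 0. The median log2 fold change over the 39 members was 0.02, and over all genes tested it was 0.01. The other 2 members, Fas and Hrk, stood below 1 TPM in all 4 libraries and were not tested. The share of members called is close to the share of all genes called, so the count by itself is not a result about these genes. The count was 0 without control replicate 1, the control library with 40 somites, and 2 without knockout replicate 1 or 2, the second gene being Bok. In a fit that leaves out a library, its genotype has 1 library, which is assumed to vary like those of the other genotype, and this holds for each such value given here.

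**Figure D1:**
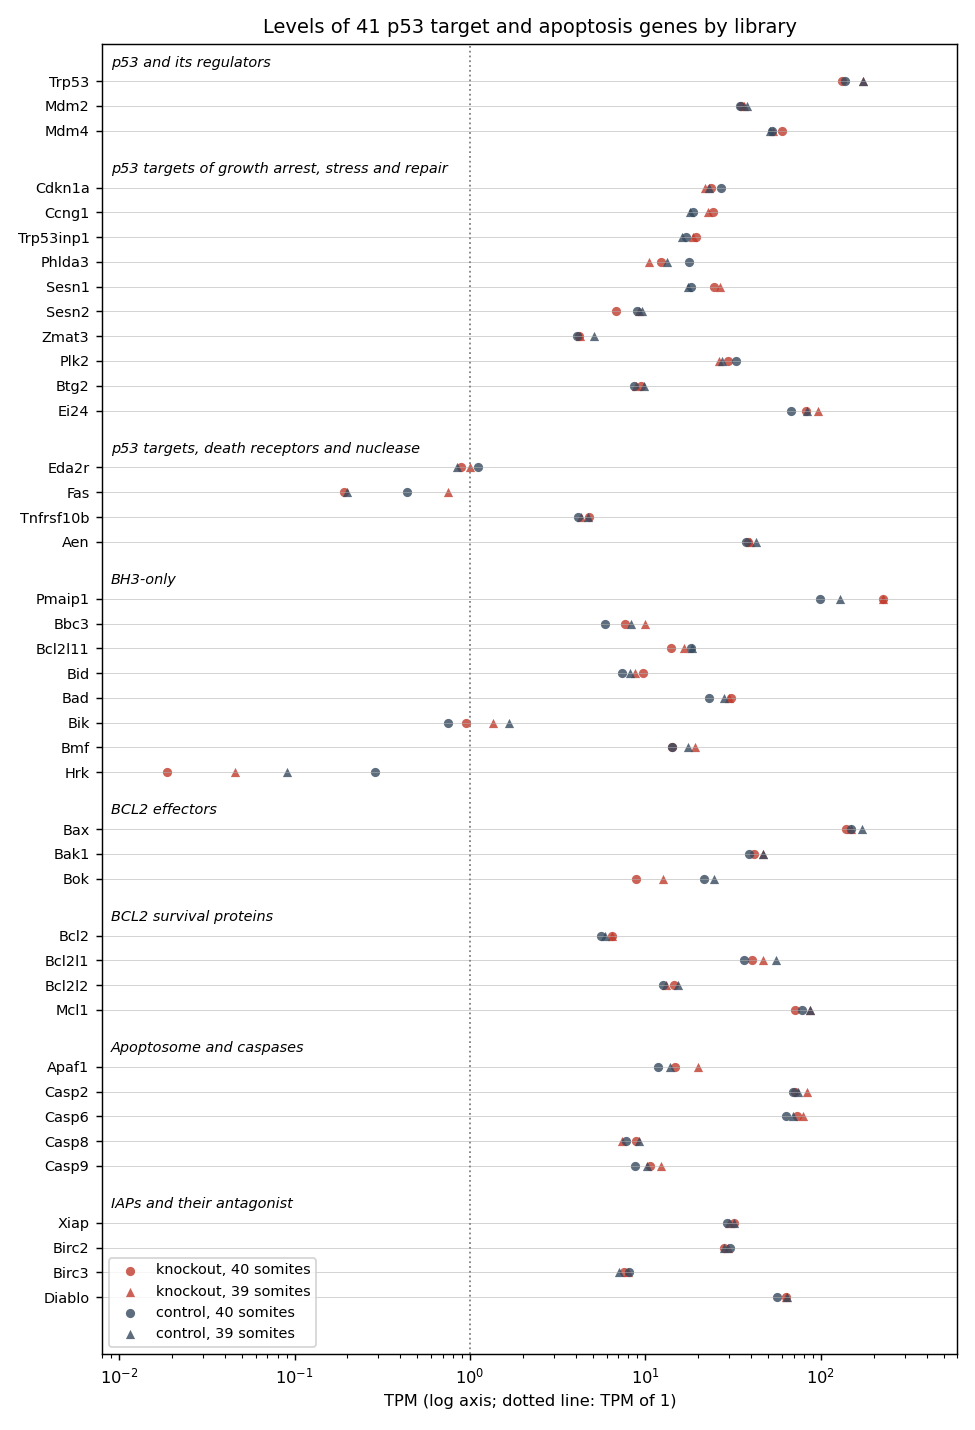
TPM of each of the 41 genes on a log axis, grouped by role, with 1 point per library, red for knockout and dark blue for control, circles for 40 somites and triangles for 39. The red and blue points overlap for most genes, those of Pmaip1 and Bok lie apart, and Fas and Hrk lie left of 1 TPM in all 4 libraries.

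Trp53, which encodes p53, was among the most abundant members. It stood at 132 and 173.7 TPM in knockout buds at 40 and 39 somites, against 138 and 174 TPM in control buds at 40 and 39 somites. The libraries at 39 somites were higher in both genotypes, and the knockout and control values at each stage nearly coincided. Its log2 fold change was -0.03 with a 95% interval from -0.46 to 0.40 (limma). Mdm2, itself a p53 target as well as its ligase, stood at 35.1 and 36.5 TPM in knockout buds against 34.7 and 38.1 TPM in control buds. Mdm4, the partner that masks the activation domain of p53, stood at 59.7 and 53.4 TPM in knockout buds against 52.7 and 51.3 TPM in control buds. The Mdm2 values overlapped between the genotypes, while both knockout values of Mdm4 lay above both control values by a small margin. The 95% intervals of the log2 fold changes were -0.29 to 0.25 for Mdm2 and -0.15 to 0.39 for Mdm4, and neither gene passed (limma, Benjamini-Hochberg adjusted p = 0.962 and 0.740).

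The p53 protein binds DNA at decamers made of purines, then C, a pair of bases that are A or T, G, and then pyrimidines, and it binds most tightly where such decamers stand in pairs. This decamer reads as the same pattern on both strands. The 250 bases before each RefSeq start (GRCm38.p6) were searched for it, and windows were at hand for 36 members, 51 windows in all. A decamer was found in 9 of the 51 windows (17.6%), each of another gene, and in 7.13% of the 32851 windows of all genes. The 9 genes were Trp53, Mdm2, Cdkn1a, Ccng1, Sesn1, Ei24, Aen, Bax and Bmf. Among the p53 targets 5 of 14 windows held one, and these 14 windows belonged to 11 of the target genes. A pair of decamers with at most 13 bases between them was found in 1 member window, a window of Cdkn1a, and in 0.0639% of all windows. The search allowed no mismatch, so a stretch that misses the pattern by 1 base is not marked. Such a stretch directly follows the second decamer of the Cdkn1a window. The windows below set 2 classical targets, Cdkn1a and Mdm2, beside Ccng1 and Sesn1 and beside Bok, and none of these 5 genes passed. Ccng1 and Sesn1 had the smallest p-values in the p53 target classes, in which Pmaip1 is not counted. Bok had the largest difference among members that did not pass. They are written 5′ to 3′ on the strand of the gene with decamers in capitals. The windows before the other start of Cdkn1a and of Sesn1 held no decamer. The Cdkn1a window is chr17:29090729-29090978 (plus strand, before the outer of its 2 starts), that of Mdm2 chr10:117710759-117711008 (minus), that of Ccng1 chr11:40755287-40755536 (minus), that of Sesn1 chr10:41887189-41887438 (plus, before the inner of its 2 starts) and that of Bok chr1:93685325-93685574 (plus).
Cdkn1a: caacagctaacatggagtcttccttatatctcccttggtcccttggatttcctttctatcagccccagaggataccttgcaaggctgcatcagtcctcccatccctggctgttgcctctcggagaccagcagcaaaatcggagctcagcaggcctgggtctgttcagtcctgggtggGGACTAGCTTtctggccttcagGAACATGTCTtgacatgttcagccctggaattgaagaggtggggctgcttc
Mdm2: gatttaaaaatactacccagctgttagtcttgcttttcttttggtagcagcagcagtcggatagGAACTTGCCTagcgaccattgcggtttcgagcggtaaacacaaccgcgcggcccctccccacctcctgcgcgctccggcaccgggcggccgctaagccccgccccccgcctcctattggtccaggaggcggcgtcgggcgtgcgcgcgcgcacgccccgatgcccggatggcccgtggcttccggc
Ccng1: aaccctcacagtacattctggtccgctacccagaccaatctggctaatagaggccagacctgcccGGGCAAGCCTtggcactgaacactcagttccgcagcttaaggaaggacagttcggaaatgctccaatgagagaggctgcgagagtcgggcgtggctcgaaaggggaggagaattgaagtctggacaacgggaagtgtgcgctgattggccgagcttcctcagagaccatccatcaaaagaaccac
Sesn1: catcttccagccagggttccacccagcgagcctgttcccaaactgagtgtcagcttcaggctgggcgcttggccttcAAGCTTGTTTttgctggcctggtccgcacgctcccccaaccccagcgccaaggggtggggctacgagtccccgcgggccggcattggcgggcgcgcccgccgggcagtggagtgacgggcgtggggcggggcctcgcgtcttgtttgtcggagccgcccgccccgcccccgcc
Bok: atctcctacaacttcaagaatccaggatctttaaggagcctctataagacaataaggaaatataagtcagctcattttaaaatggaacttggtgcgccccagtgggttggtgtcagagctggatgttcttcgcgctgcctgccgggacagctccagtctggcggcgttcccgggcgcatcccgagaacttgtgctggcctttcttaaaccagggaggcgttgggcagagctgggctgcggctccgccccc
The first base of the decamers lay at positions -73 and -51 relative to the start in Cdkn1a, at -186 in Mdm2, at -185 in Ccng1 and at -173 in Sesn1. No decamer was found in the Bok window, and sequence outside the windows was not searched for any gene. These matches are a description of the letters in the windows and do not show binding. Windows with a decamer thus belonged both to genes with values near those of the controls and to Ccng1 and Sesn1, which did not pass either.

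Cdkn1a, the cyclin-dependent kinase inhibitor through which p53 arrests the cell cycle, stood at 23.6 and 21.7 TPM in knockout buds at 40 and 39 somites, against 27.0 and 23.0 TPM in control buds. The values overlapped, and the log2 fold change of -0.13 had a 95% interval from -0.45 to 0.19 (limma, Benjamini-Hochberg adjusted p = 0.747). A rise of more than 0.19 on the log2 scale therefore lies outside the interval. Phlda3, a target that dampens AKT signalling, stood at 12.3 and 10.5 TPM in knockout buds against 17.7 and 13.2 TPM in control buds. Both knockout values were below both control values, and the gene did not pass (log2 fold change -0.40 ± 0.17; limma, Benjamini-Hochberg adjusted p = 0.400).

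Sesn1 encodes a sestrin, a stress protein that restrains mTORC1 signalling. It lies on chromosome 10 from 41809935 to 41908424 (mm10) and stood at 24.7 and 26.7 TPM in knockout buds at 40 and 39 somites, against 18.2 and 17.4 TPM in control buds. All knockout values were above all control values, by more than the spread within each genotype, and the ratio of the means was 1.44. On the log2 scale the difference was 0.50 ± 0.12 (SE over 2 libraries per genotype), and it missed the threshold (limma, Benjamini-Hochberg adjusted p = 0.132). Sesn2, the related stress gene, stood at 6.76 and 9.24 TPM in knockout buds against 8.91 and 9.60 TPM in control buds, with values that overlapped.

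Ccng1, a cyclin that takes part in the control of p53 by MDM2, lies on chromosome 11 from 40748552 to 40755311 and stood at 24.2 and 22.6 TPM in knockout buds at 40 and 39 somites, against 18.6 and 18.0 TPM in control buds. The genotypes did not overlap, and the gene did not pass (log2 fold change 0.34 ± 0.12; limma, Benjamini-Hochberg adjusted p = 0.279). Trp53inp1, which promotes p53 activity and autophagy, stood at 19.4 and 18.7 TPM in knockout buds against 17.1 and 16.1 TPM in control buds. Its knockout values were also above its control values, and it did not pass (log2 fold change 0.19 ± 0.12; limma, Benjamini-Hochberg adjusted p = 0.569).

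**Figure D2:**
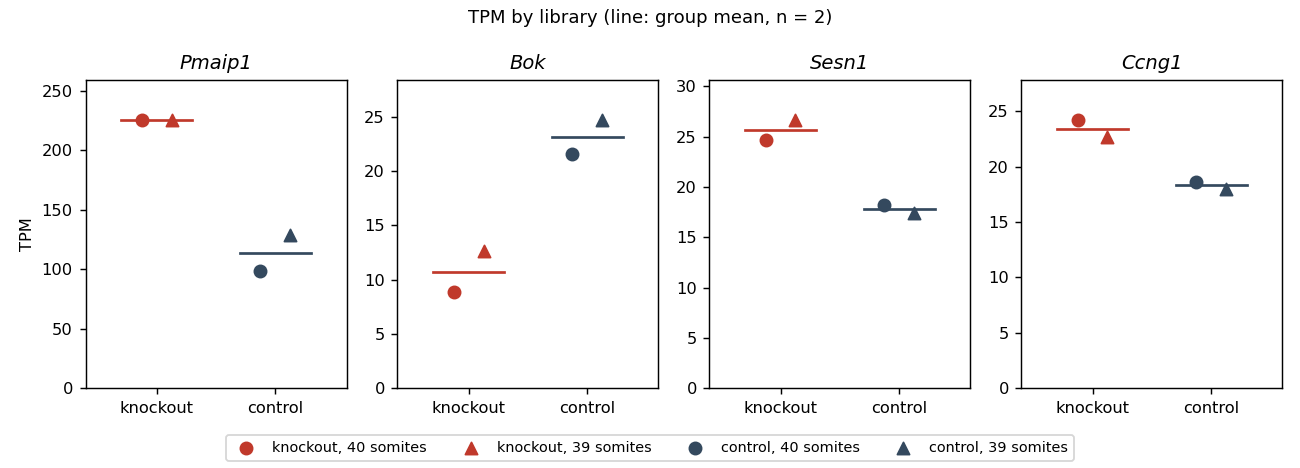
TPM of the 4 members with an unadjusted p under 0.05, 1 panel per gene with its own axis from 0, knockout left of control, circles for 40 somites and triangles for 39, and a line at the mean of each genotype. In each panel the knockout and control points lie apart, around 225 TPM in the knockout against 98.3 and 129 TPM in the control for Pmaip1, and at 8.85 and 12.6 TPM in the knockout against 21.6 and 24.7 TPM in the control for Bok.

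The other targets of arrest, stress and repair did not separate the genotypes. Plk2, a polo-like kinase, Btg2, an antiproliferative gene, Zmat3, an RNA-binding regulator of splicing, and Ei24, an endoplasmic reticulum protein gene, had log2 fold changes of -0.11, -0.01, -0.09 and 0.25, each with values that overlapped between the genotypes. Of the 10 genes of this class, 0 passed (limma), 2 had an unadjusted p under 0.05, 4 lay above 0 and 6 below, and the median was -0.05 against 0.01 for all genes tested. All 10 intervals lay between -1 and 1, as did 91.0% of those of all genes.

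Among the targets that act in cell death directly, Aen, a nuclease gene, stood at 38.6 and 39.3 TPM in knockout buds at 40 and 39 somites, against 37.6 and 42.6 TPM in control buds. The death receptor genes were low. Tnfrsf10b, the only TRAIL death receptor gene of the mouse, stood at 4.77 and 4.31 TPM in knockout buds against 4.14 and 4.72 TPM in control buds. Eda2r, a receptor of the ectodysplasin family, stood at 0.891 and 1.0005 TPM in knockout buds against 1.11 and 0.844 TPM in control buds. These 3 genes overlapped between the genotypes and their log2 fold changes lay between -0.04 and 0.03. Fas, the receptor of FAS ligand, was not tested and stood at 0.190 and 0.753 TPM in knockout buds, against 0.436 and 0.198 TPM in control buds.

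Pmaip1 encodes NOXA, a BH3-only protein that binds and inactivates MCL1 and that is a p53 target in other settings, though other factors also activate it. The gene (ENSMUSG00000024521) lies on chromosome 18 of mm10 from 66458533 to 66465565 on the plus strand. It stood at 225 and 225 TPM in knockout buds at 40 and 39 somites, against 98.3 and 129 TPM in control buds at 40 and 39 somites. The knockout values nearly coincided, the control values differed by more, and the genotypes did not overlap. The means were 225 ± 0.22 TPM in the knockout and 113.6 ± 21.7 TPM in the control (SD, n = 2 per genotype), a ratio of 1.98. The log2 fold change was 0.99 ± 0.15 (SE) with a 95% interval from 0.63 to 1.36 (limma, Benjamini-Hochberg adjusted p = 0.0431). Within a stage, the log2 difference of knockout and control was 1.19 in 40-somite and 0.80 in 39-somite buds.

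The rise of Pmaip1 was close to the threshold of the test. The call ended without control replicate 1, with quantile normalization, without the variance trend and with no filter on low values (limma, Benjamini-Hochberg adjusted p = 0.0856, 0.0503, 0.0601 and 0.198), and over all alternatives the adjusted p ran from 0.000184 to 0.198 and the log2 fold change from 0.80 to 1.19. Fewer cells of a type and less RNA per cell cannot be told apart in whole buds, and this holds for every gene given here.

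Of the other BH3-only genes, 6 were tested and none passed (limma; 0 at an unadjusted p under 0.05). Bbc3, which encodes PUMA, the other BH3-only protein best known as a p53 target, stood at 7.60 and 9.93 TPM in knockout buds at 40 and 39 somites, against 5.86 and 8.31 TPM in control buds. The knockout value was above the control value at each stage, but the genotypes overlapped, and the log2 fold change of 0.28 had a 95% interval from -0.22 to 0.78 (limma). Bcl2l11, which encodes BIM, a strong activator of BAX and BAK, stood at 13.9 and 16.5 TPM in knockout buds against 18.3 and 18.4 TPM in control buds. Both knockout values of Bcl2l11 were below both control values, and the log2 fold change of -0.26 ± 0.13 missed the threshold (limma, Benjamini-Hochberg adjusted p = 0.479).

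Bid, which links caspase 8 to the mitochondria, stood at 9.65 and 8.75 TPM in knockout buds at 40 and 39 somites, against 7.39 and 8.13 TPM in control buds. Bad, which is held inactive by growth factor signalling, stood at 30.6 and 29.8 TPM in knockout buds against 23.0 and 28.2 TPM in control buds. Both genes had knockout values above all control values by small margins and did not pass (log2 fold changes 0.22 ± 0.14 and 0.24 ± 0.13). Bmf, a BH3-only gene linked to the cytoskeleton, stood at 14.1 and 19.1 TPM in knockout buds against 14.2 and 17.5 TPM in control buds, and so overlapped. Bik stood between 0.746 and 1.67 TPM over the 4 libraries, with no separation of the genotypes. Hrk, a BH3-only gene best known from neurons, was not tested and stood at 0.0187 and 0.0456 TPM in knockout buds, against 0.288 and 0.0906 TPM in control buds.

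In TPM, which can be compared between genes, Pmaip1 made up 74.5% and 72.5% of the summed BH3-only TPM in knockout buds at 40 and 39 somites, against 58.5% and 61.1% in control buds. The sum of the class was 302 and 311 TPM in knockout buds against 168 and 211 TPM in control buds. Without Pmaip1 the sum was 76.8 and 85.5 TPM in knockout buds against 69.7 and 82.2 TPM in control buds. The genotypes overlapped in the sum without Pmaip1 and not in the sum with it. Among 7 tested BH3-only genes 1 rose and none of the other 6 passed, 5 lay above 0 and 2 below, and the median log2 fold change was 0.22, against 0.01 for all genes tested.

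Bok encodes an effector of the BCL2 family related to BAX and BAK, which is found mostly at the endoplasmic reticulum. The gene (ENSMUSG00000026278) lies on chromosome 1 of mm10 from 93685660 to 93695764 on the plus strand. It stood at 8.85 and 12.6 TPM in knockout buds at 40 and 39 somites, against 21.6 and 24.7 TPM in control buds at 40 and 39 somites. The genotypes did not overlap, and in both the library with 39 somites was the higher one. The means were 10.7 ± 2.68 TPM in the knockout and 23.1 ± 2.22 TPM in the control (SD, n = 2 per genotype), a ratio of 0.464. The log2 fold change was -1.06 ± 0.18 (SE) with a 95% interval from -1.51 to -0.61, and it missed the threshold (limma, Benjamini-Hochberg adjusted p = 0.0676). Within a stage, the log2 difference of knockout and control was -1.20 in 40-somite and -0.91 in 39-somite buds. With somite stage in the model Bok passed as lower in the knockout (limma, Benjamini-Hochberg adjusted p = 0.0193), where 4.16% of all genes passed. Over all alternatives its adjusted p ran from 3.29e-06 to 0.231 and its log2 fold change from -1.29 to -0.82.

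The other effectors were far more abundant than Bok. Bax stood at 139 and 147.6 TPM in knockout buds at 40 and 39 somites, against 147 and 171.9 TPM in control buds. Bak1 stood at 41.5 and 46.5 TPM in knockout buds against 38.9 and 46.7 TPM in control buds. Both overlapped between the genotypes, with log2 fold changes of -0.15 (95% interval -0.44 to 0.14) and 0.04 (-0.28 to 0.37) in limma. Bok was 4.66% and 6.11% of the summed effector TPM in knockout buds, against 10.4% and 10.2% in control buds.

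The survival genes of the family gave values close to 0. Mcl1, which encodes the partner that NOXA binds, stood at 71.4 and 87.1 TPM in knockout buds at 40 and 39 somites, against 77.7 and 87.2 TPM in control buds. Bcl2l1, which encodes BCL-XL, stood at 40.2 and 46.7 TPM in knockout buds against 36.6 and 55.7 TPM in control buds. The values of both genes overlapped, and at each genotype the library with 39 somites was higher. Bcl2l2, which encodes BCL-W, stood at 14.6 and 13.1 TPM in knockout buds against 12.6 and 15.3 TPM in control buds. Bcl2 stood at 6.47 and 6.46 TPM in knockout buds against 5.59 and 5.85 TPM in control buds, without overlap. None of the 4 passed (limma; at an unadjusted p under 0.05 there were 0), and their log2 fold changes lay between -0.06 and 0.15. The summed TPM of the survival genes divided by that of the BH3-only genes was 0.440 and 0.493 in knockout buds against 0.788 and 0.777 in control buds. The survival sums were 132.7 and 153.4 TPM in knockout buds against 132.4 and 164.0 TPM in control buds, and overlapped. The BH3-only sums without Pmaip1 overlapped too, but overlap of 2 sums does not settle whether their ratio overlaps. The part of Pmaip1 in that ratio was not tested.

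**Figure D3:**
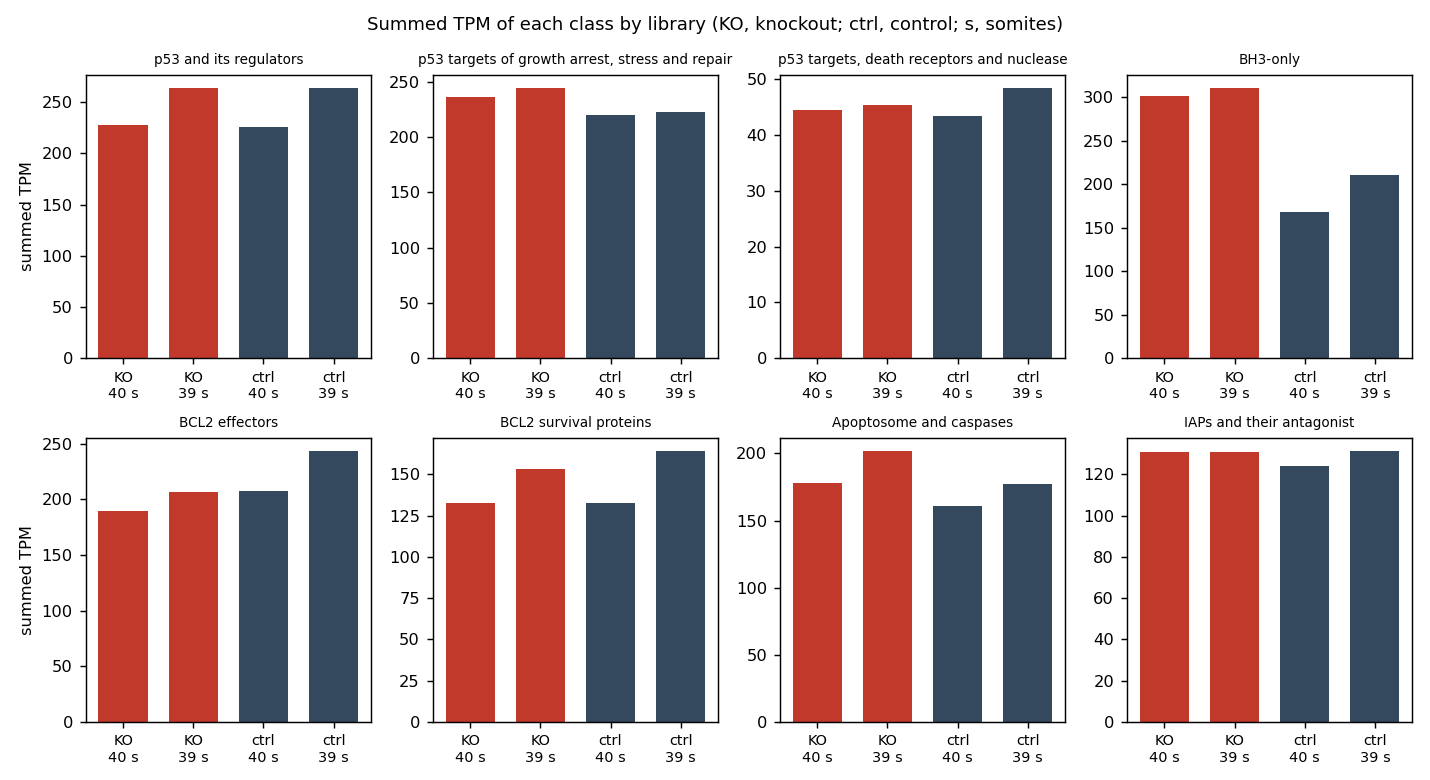
Summed TPM of the members of each class, 1 panel per class with its own axis from 0 and 1 bar per library, knockout (red) left of control (dark blue). The BH3-only bars stand at 302 and 311 TPM in the knockout against 168 and 211 TPM in the control. The knockout bars are also higher for the targets of growth arrest, stress and repair (237 and 244 against 220 and 223 TPM). The largest part of that sum is Ei24, whose values overlapped, and 6 of the 10 genes of the class lay below 0. By a small margin, the knockout bars are higher for the apoptosome and caspases (177.6 and 201.5 against 160.9 and 177.0 TPM). They are lower, also by a small margin, for the effectors (189.7 and 206.8 against 207.9 and 243.2 TPM). In the remaining classes the bars overlap between the genotypes.

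Apaf1, the scaffold of the apoptosome, stood at 14.7 and 19.9 TPM in knockout buds at 40 and 39 somites, against 11.7 and 13.9 TPM in control buds. Both knockout values were above both control values, but the spread within the knockout was wide, and the log2 fold change of 0.39 ± 0.18 missed the threshold (limma, Benjamini-Hochberg adjusted p = 0.422). Casp9, the caspase that the apoptosome activates, stood at 10.7 and 12.2 TPM in knockout buds against 8.72 and 10.2 TPM in control buds. Casp6, an executioner caspase, stood at 72.6 and 78.9 TPM in knockout buds against 63.4 and 69.3 TPM in control buds. Their log2 fold changes were 0.25 ± 0.15 and 0.19 ± 0.11, the genotypes did not overlap in either gene, and neither passed. Casp2, a caspase activated by the PIDDosome, and Casp8, the initiator caspase of death receptors, overlapped between the genotypes, with log2 fold changes of 0.10 and -0.06. Of the 5 genes of this class 0 passed (limma; 0 at an unadjusted p under 0.05), 4 lay above 0 and 1 below, and the median was 0.19.

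The IAP genes and Diablo had log2 fold changes near 0. Xiap, a direct caspase inhibitor, stood at 32.1 and 29.8 TPM in knockout buds at 40 and 39 somites, against 29.1 and 32.1 TPM in control buds. Birc2 and Birc3, ubiquitin ligases of TNF receptor signalling, stood between 27.9 and 30.5 TPM and between 7.05 and 8.05 TPM over the 4 libraries. These neighbours on chromosome 9 are close paralogs, so reads may have been divided between them. Diablo, the mitochondrial IAP antagonist, stood at 63.2 and 63.6 TPM in knockout buds against 56.2 and 64.0 TPM in control buds. All 4 genes overlapped between the genotypes, their log2 fold changes lay between -0.02 and 0.08, and the widest 95% interval, that of Birc3, ran from -0.30 to 0.37 (limma).

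**Figure D4:**
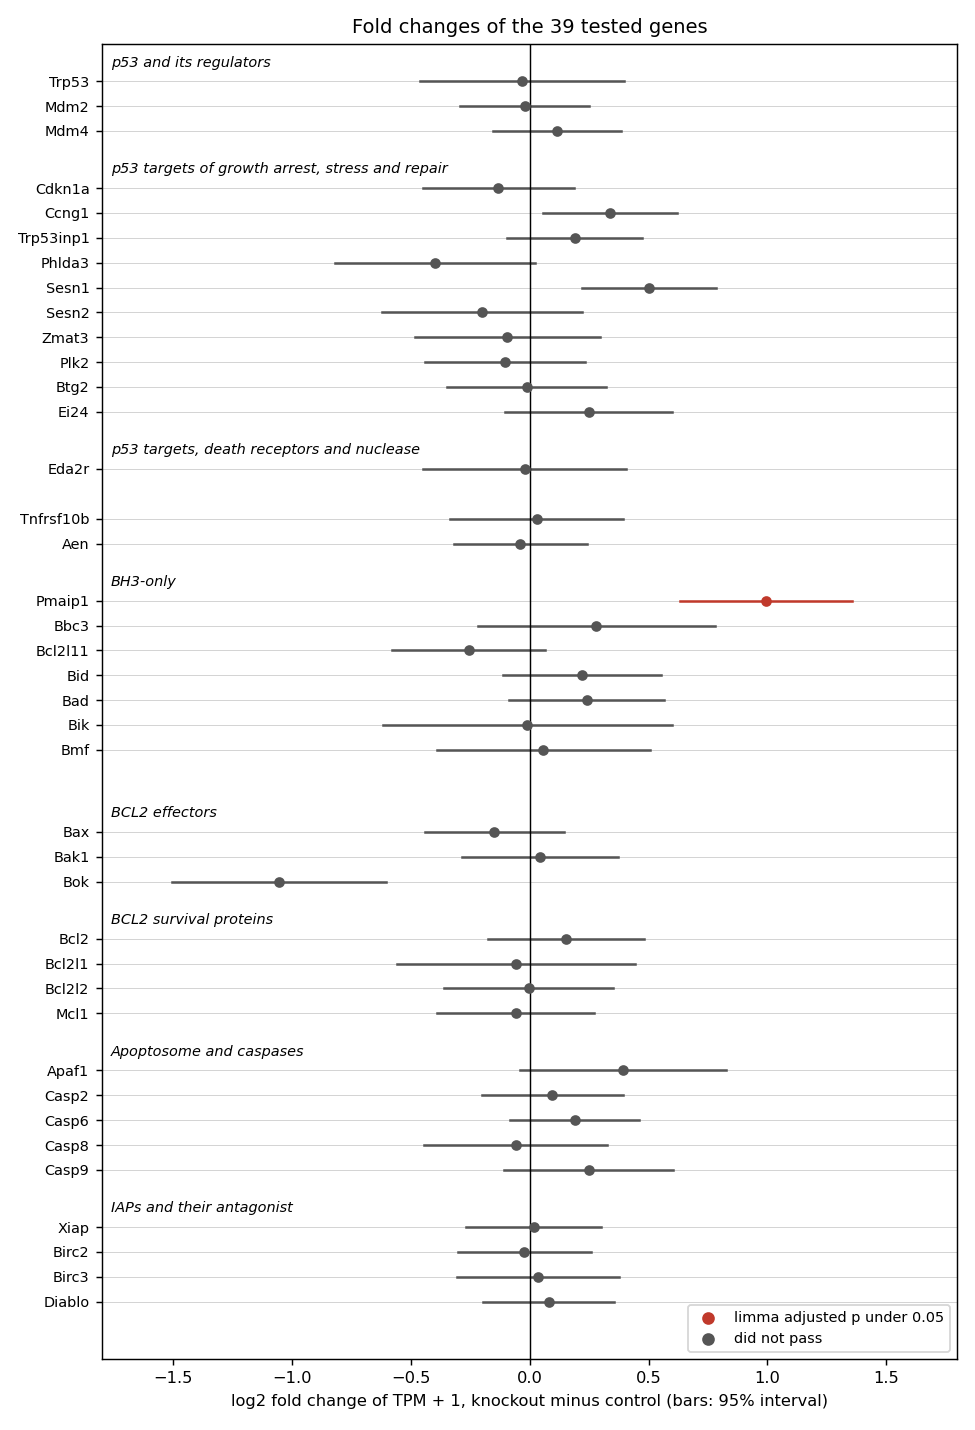
Log2 fold change of TPM + 1, knockout minus control, for the 39 tested members (points) with 95% intervals from limma (bars), grouped by role, red where the adjusted p is under 0.05. Pmaip1 at 0.99 is the only red point, Bok at -1.06 lies farthest to the left, and 35 of the 39 bars cross 0.

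Over the 39 tested members, 36 had a log2 fold change below 0.5 in size, and the other 3 were Pmaip1, Bok and Sesn1. The 95% interval lay between -1 and 1 for 37 members, so for these a change of 2-fold in either direction lies outside the interval on the log2(TPM + 1) scale. Libraries of the genotypes did not overlap for 14 members, 11 higher and 3 lower in the knockout, and for 43.9% of all genes tested (22.7% higher and 21.2% lower). Over both directions, the share of members that separated was no larger than the share of all genes. By direction, the members' share was larger among the higher and smaller among the lower.

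Further genes of the pathways, listed by role with earlier results of these data known, also gave no call. Of 90 tested genes in 6 lists, 0 passed over all genes (limma), with 5 above and 7 below 0 among those at an unadjusted p under 0.05, beside 13.7% of all genes. In the fit with somite stage 6 passed, 1 higher and 5 lower, beside 4.16% of all genes. Among 27 further p53 targets, 0 passed, the median log2 fold change was -0.03, and 11 lay above 0 and 16 below. Gadd45a, a gene of growth arrest and DNA repair, stood at 21.5 and 24.9 TPM in knockout buds at 40 and 39 somites, against 15.9 and 13.5 TPM in control buds. Gpx1, an antioxidant enzyme gene, stood at 629 and 673.3 TPM in knockout buds against 415 and 521.5 TPM in control buds. Sulf2, a heparan sulfatase gene, stood at 78.0 and 93.4 TPM in knockout buds against 105 and 122 TPM in control buds. The genotypes did not overlap in these 3 genes, and none passed (limma, Benjamini-Hochberg adjusted p = 0.127, 0.227 and 0.276), while Sulf2 did pass in the fit with somite stage (0.0474).

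Perp and Sfn, p53 targets that are also genes of stratified epithelium and that were picked out after their values were seen, passed as lower with somite stage in the model (limma, Benjamini-Hochberg adjusted p = 0.0251 and 0.0235) and not without it (0.408 and 0.379). Perp stood at 57.6 and 34.3 TPM in knockout buds at 40 and 39 somites against 86.7 and 57.0 TPM in control buds. Sfn stood at 32.0 and 19.1 TPM in knockout buds against 50.6 and 32.5 TPM in control buds. Of 12 surface ectoderm markers, 11 had a log2 fold change below 0 and 1, Tfap2c, above 0 (0.58), with a median of -0.49. Of these 12, 1 passed as lower without somite stage in the model and 4 with it, and none passed as higher in either. The sum of these markers at 40 somites was 471 TPM in knockout buds against 592 TPM in control buds. At 39 somites it was 311 TPM in knockout buds against 408 TPM in control buds. The knockout sum was thus the lower one at each stage, while over both stages the genotypes overlapped. The part of the ectoderm in the values of Perp and Sfn was not tested.

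In the list of p53 kinases, cofactors and relatives 0 of 21 passed (limma), and an unadjusted p under 0.05 was reached by 1 in the higher and 3 in the lower direction, beside 6.78% and 6.89% of all genes. The inhibitor of p53 Ppp1r13l stood at 9.30 and 8.79 TPM in knockout buds at 40 and 39 somites against 11.8 and 13.4 TPM in control buds. Prkdc, the DNA-dependent protein kinase gene, stood at 5.75 and 5.34 TPM in knockout buds against 3.96 and 3.94 TPM in control buds. Kat5, an acetyltransferase gene, stood at 39.7 and 41.4 TPM in knockout buds against 49.3 and 49.5 TPM in control buds. None of the 3 overlapped between the genotypes, and none passed with or without somite stage in the model.

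In death receptor signalling 0 of 11 genes passed, and an unadjusted p under 0.05 was reached by 2, both lower (limma), beside 6.89% of all genes in that direction. Ripk3, the kinase of necroptosis, stood at 5.95 and 6.50 TPM in knockout buds at 40 and 39 somites against 10.2 and 13.6 TPM in control buds. It did not pass (log2 fold change -0.83 ± 0.17; limma, Benjamini-Hochberg adjusted p = 0.103), and it passed as lower with somite stage in the model (0.0372). Tradd, an adaptor of the TNF receptor, stood at 2.38 and 2.59 TPM in knockout buds against 3.41 and 4.01 TPM in control buds. Tnfrsf25, a death domain receptor, stood at 2.18 and 1.11 TPM in knockout buds against 0.814 and 0.668 TPM in control buds. Neither Tradd nor Tnfrsf25 passed in either model, although their genotypes did not overlap.

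Of 12 tested genes of the mitochondrial steps and 9 further caspase, IAP and nuclease genes, 0 passed (limma; 0 at an unadjusted p under 0.05), with medians of -0.03 and 0.13. Bcl2l12, a distant member of the BCL2 family, stood at 58.0 and 66.5 TPM in knockout buds at 40 and 39 somites against 46.5 and 57.6 TPM in control buds, a separation of less than 1 TPM. Bag1 and Vdac2 overlapped between the genotypes, with log2 fold changes of -0.14 and 0.11. Dffa and Dffb, which encode the inhibitor and the nuclease of the DNA fragmentation factor, had log2 fold changes of 0.24 and 0.19 without overlap.

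Genes for the uptake of dying cells included receptors that differed in opposite directions. Mertk, a receptor tyrosine kinase for dying cells, stood at 25.97 and 28.6 TPM in knockout buds at 40 and 39 somites against 14.6 and 17.0 TPM in control buds. Tyro3, a receptor of the same family, stood at 12.3 and 13.95 TPM in knockout buds against 20.2 and 23.7 TPM in control buds. The genotypes did not overlap in either gene. Their log2 fold changes of 0.75 ± 0.13 and -0.70 ± 0.14 missed the threshold (limma, Benjamini-Hochberg adjusted p = 0.0665 and 0.0964), and in the fit with somite stage both passed (0.0223 and 0.0276). Xkr8, a scramblase gene, stood at 5.90 and 5.64 TPM in knockout buds against 2.73 and 4.74 TPM in control buds and did not pass. Macrophage markers were low and summed to 31.1 and 26.8 TPM in knockout buds against 32.0 and 44.5 TPM in control buds, with 0 of 10 passing, 1 above 0 and 9 below. Adgre1, which encodes the macrophage antigen F4/80 and was picked out after its values were seen, stood at 0.468 and 0.381 TPM in knockout buds against 1.17 and 2.00 TPM in control buds. The part of macrophages in these values was not tested.

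**Figure D5:**
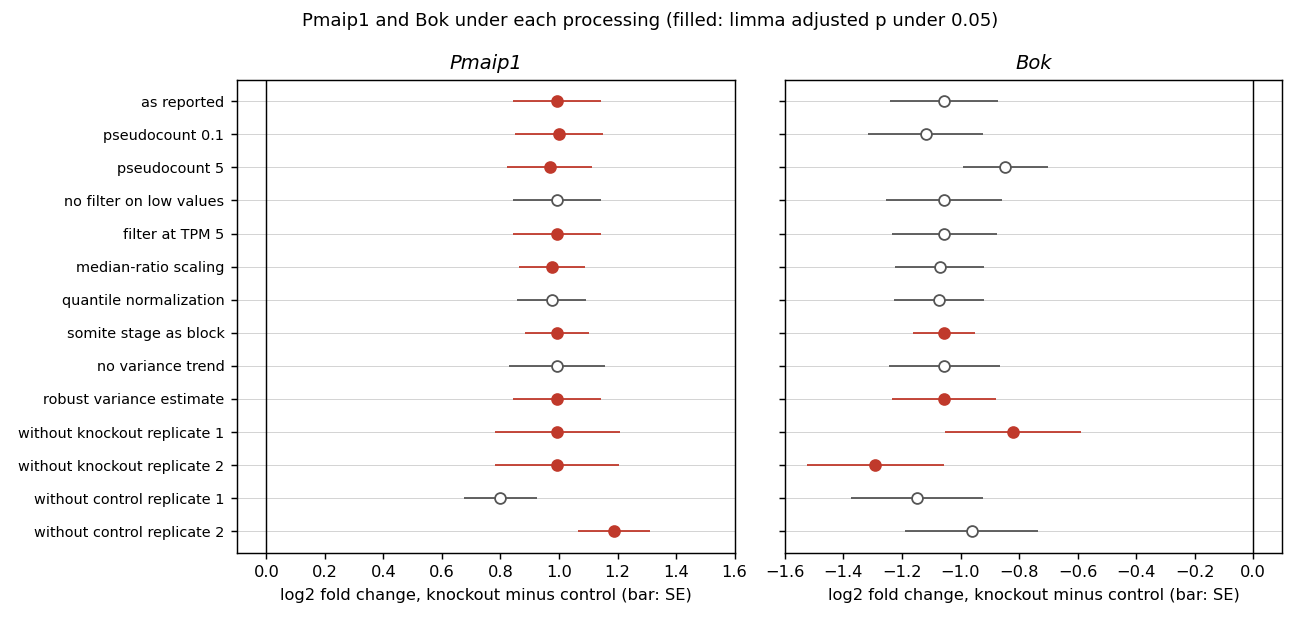
Log2 fold change of Pmaip1 (left) and Bok (right), knockout minus control, under each processing, with SE as bars and filled red points where the limma adjusted p is under 0.05. All values of Pmaip1 lie between 0.80 and 1.19 and all values of Bok between -1.29 and -0.82, so the direction was the same throughout while the calls were not.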

How the data were processed

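RNA was measured in 4 libraries, 2 per genotype, with groups taken from the genotype labels. The authors deposited 1 table of TPM values with 35727 gene identifiers, each library summing to 1000000. Salmon 1.9.0 and mm10 are named, with no role or order, per the submitters' processing notes. Which transcripts were used, and how genes were totalled, is not given in the sources used here. TPM keep no depth, so no count test and no counting interval were possible, and precision rests on 2 embryos per genotype. A single column name carries a letter that the matching title lacks.

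Symbols were matched for 35422 identifiers (99.1%), and 38 symbols with several identifiers were summed, none of them a member. Coordinates are from GENCODE M21 (mm10), counted from 1. The test used limma 3.58.1 (R 4.3.3; lmFit and eBayes with trend, without covariates) on log2(TPM + 1) for genes that reached 1 TPM in 2 or more libraries, with Benjamini-Hochberg adjustment over all 12809 genes at 0.05. Fold changes are knockout minus control on that scale, which understates low genes. With 2 libraries per genotype an exact two-sided permutation p is 0.333 or more, so none is given. The fit was tested on simulated data. Alternatives were pseudocounts of 0.1 and 5, no filter, a filter at 5 TPM, median-ratio and quantile scaling, a somite stage block, constant prior variance, robust empirical Bayes, each library left out, and a threshold of 0.1.

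The members, the lists and the tests were chosen with earlier results of these data known. Named genes are all members, Smarcc1 and up to 3 genes with the smallest p in each further list. A few of the genes picked in this way are not reported here. Promoter windows are from RefSeq, and Pmaip1, Trp53inp1, Zmat3, Tnfrsf10b and Bik had none.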

Additional observations from a re-analysis of the deposited data

How the results depend on the processing

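Among all genes, the count of 167 became 0 with no filter on low values (limma; 2338 at an unadjusted p under 0.05), 533 with somite stage as a block, 275 with a robust variance and 316 at a threshold of 0.1, and it ran from 50 to 646 with a library left out. Among members, the count of 1 became 0 with no filter, with quantile normalization and without the variance trend, and 2 with somite stage, with a robust variance and at a threshold of 0.1, and it ran from 0 to 2 with a library left out. With no filter 4 members had an unadjusted p under 0.05, with quantile normalization 6 and without the trend 4. The cause of these shifts was not tested. The labels give no replicate numbers, and those used here only name the libraries. The paired fit is therefore the one with somite stage as a block, which pairs the libraries of 40 and of 39 somites across the genotypes and leaves each fold change as it was. In the fits with a library left out, the spread comes from the other genotype alone.

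Changes of direction were seen only in members whose values lay near 0 and did not pass. Eda2r was at 0.0053 and Xiap at -0.0035 with quantile normalization, and Bik was at 0.014 with quantile normalization and at 0.016 with a pseudocount of 0.1. With a library left out, log2 fold changes ran from -0.23 to 0.16 for Trp53, -0.087 to 0.043 for Mdm2, -0.23 to 0.042 for Zmat3, -0.23 to 0.023 for Plk2, -0.097 to 0.072 for Btg2, -0.12 to 0.077 for Eda2r, -0.047 to 0.11 for Tnfrsf10b, -0.13 to 0.047 for Aen, -0.32 to 0.30 for Bik, -0.15 to 0.26 for Bmf, -0.085 to 0.17 for Bak1, -0.35 to 0.24 for Bcl2l1, -0.14 to 0.13 for Bcl2l2, -0.20 to 0.081 for Mcl1, -0.020 to 0.21 for Casp2, -0.18 to 0.063 for Casp8, -0.052 to 0.084 for Xiap, -0.084 to 0.037 for Birc2, -0.050 to 0.12 for Birc3 and -0.014 to 0.17 for Diablo. The median log2 fold change of all genes tested moved by less than 0.1 under either scaling.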

Other observations

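Somite stage, which cannot be told apart from sex in these libraries, went with the levels of several members. Trp53 was higher at 39 than at 40 somites by 0.39 log2 units in the knockout and by 0.33 in the control, and Bbc3 by 0.35 and 0.44. Cdkn1a was lower at 39 somites by 0.11 log2 units in the knockout and by 0.22 in the control, and Phlda3 by 0.21 and 0.39. The sign of the stage difference was the same in both genotypes for 27 of the 39 tested members (69.2%), and for 69.2% of all genes tested. It was positive in both genotypes for 21 members (53.8%), and for 53.6% of all genes tested. These stage differences were not tested.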
